A study of Mus musculus with 9 samples.

Results

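Genes that restrain the cell cycle, namely inhibitors of cyclin-dependent kinases (CDKs) and targets of the transcription factor p53, were followed across 3 preparations of mouse heart cells. The listed genes were Cdkn1a, Cdkn1b, Cdkn2a, Cdkn2b, Mdm2, Gadd45a, Plk2, Btg2, Ccng1 and Trp53inp1. A gene was taken as measured where a probe set carried its symbol and no other, and the probe set with the highest mean over the 9 arrays stood for it. By this rule 9 of the 10 listed genes were measured, out of 19933 genes on the array. The probe set of Cdkn1a is annotated to a second gene as well, so no level is given for it.

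Messenger RNA was measured on Affymetrix mouse Gene 1.0 ST arrays in embryonic cardiomyocytes that carried an Nkx-YFP reporter, in embryonic cardiac fibroblasts and in adult cardiac fibroblasts, with 3 biological replicates each. The series set out to look for fibroblast factors that drive myocytes to divide. No treatment was named for any group. The strain, sex, exact ages and any culture of the cells were not stated in the labels. The reporter takes its name from a cardiac lineage gene, and the labels do not say how the fibroblasts were isolated. All levels below are values made by the authors with RMA (robust multi-array average), read as log2, so a difference of 1 is a doubling. The number of arrays limits the precision.

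Progression from G1 into S phase is driven by cyclins bound to CDKs, which phosphorylate the retinoblastoma family and release E2F factors. The Cip/Kip inhibitors, such as p27 (Cdkn1b), bind cyclin-CDK complexes, while the Ink4 inhibitors, such as p16 (Cdkn2a) and p15 (Cdkn2b), bind CDK4 and CDK6. Activated p53 raises transcription of genes that halt the cycle, repair DNA or start cell death, and of Mdm2, which marks p53 for degradation and so closes a feedback loop. Cardiomyocytes divide in the embryo and largely stop after birth, and inhibitors of this kind are among the genes known to take part in that exit.

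Promoter windows from RefSeq (GRCm38.p6, 250 bases before to 50 after the gene's start) were at hand for 8 of the 9 genes, with 2 windows for Cdkn2a. They were searched for the p53 consensus decamer, which reads alike on both strands and usually occurs as a pair in a p53 response element. It was found once each in the windows of Gadd45a, Mdm2 and Ccng1, and in 8.36% of all 32851 windows. These 3 stretches are shown because the genes have p53 in common and yet did not move the same way between the preparations. Capitals mark the decamer, with 30 bases on either side, 5′ to 3′ on the gene's strand, which is the minus strand for each (chr6:67037408-67037477 for Gadd45a, chr10:117710905-117710974 for Mdm2, chr11:40755432-40755501 for Ccng1).
Gadd45a: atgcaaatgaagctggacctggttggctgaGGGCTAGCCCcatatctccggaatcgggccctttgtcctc
Mdm2: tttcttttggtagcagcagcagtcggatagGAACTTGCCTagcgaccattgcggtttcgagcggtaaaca
Ccng1: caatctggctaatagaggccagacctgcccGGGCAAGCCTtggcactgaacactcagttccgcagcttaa
The decamer began 40 bases before the start in Gadd45a, 186 in Mdm2 and 185 in Ccng1. A match is a description of the letters and does not show binding. The windows of Plk2 and Btg2 held no match, and sequence outside the windows was not searched.

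Of the 9 measured genes, 5 differed between the fibroblast preparations and the cardiomyocytes, and they did so in opposite directions. Gadd45a, Mdm2 and Plk2 were lowest in the cardiomyocytes and highest in the adult fibroblasts. Btg2 and Ccng1 had the reverse order, highest in the cardiomyocytes and lowest in the adult fibroblasts. The inhibitors Cdkn1b, Cdkn2a and Cdkn2b and the p53 target Trp53inp1 passed the test in none of the 3 comparisons. A gene was called at an adjusted p under 0.05 by limma, adjusted by Benjamini-Hochberg over all 19933 genes. The comparisons share arrays with each other, so they are not independent.

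**Figure D1:**
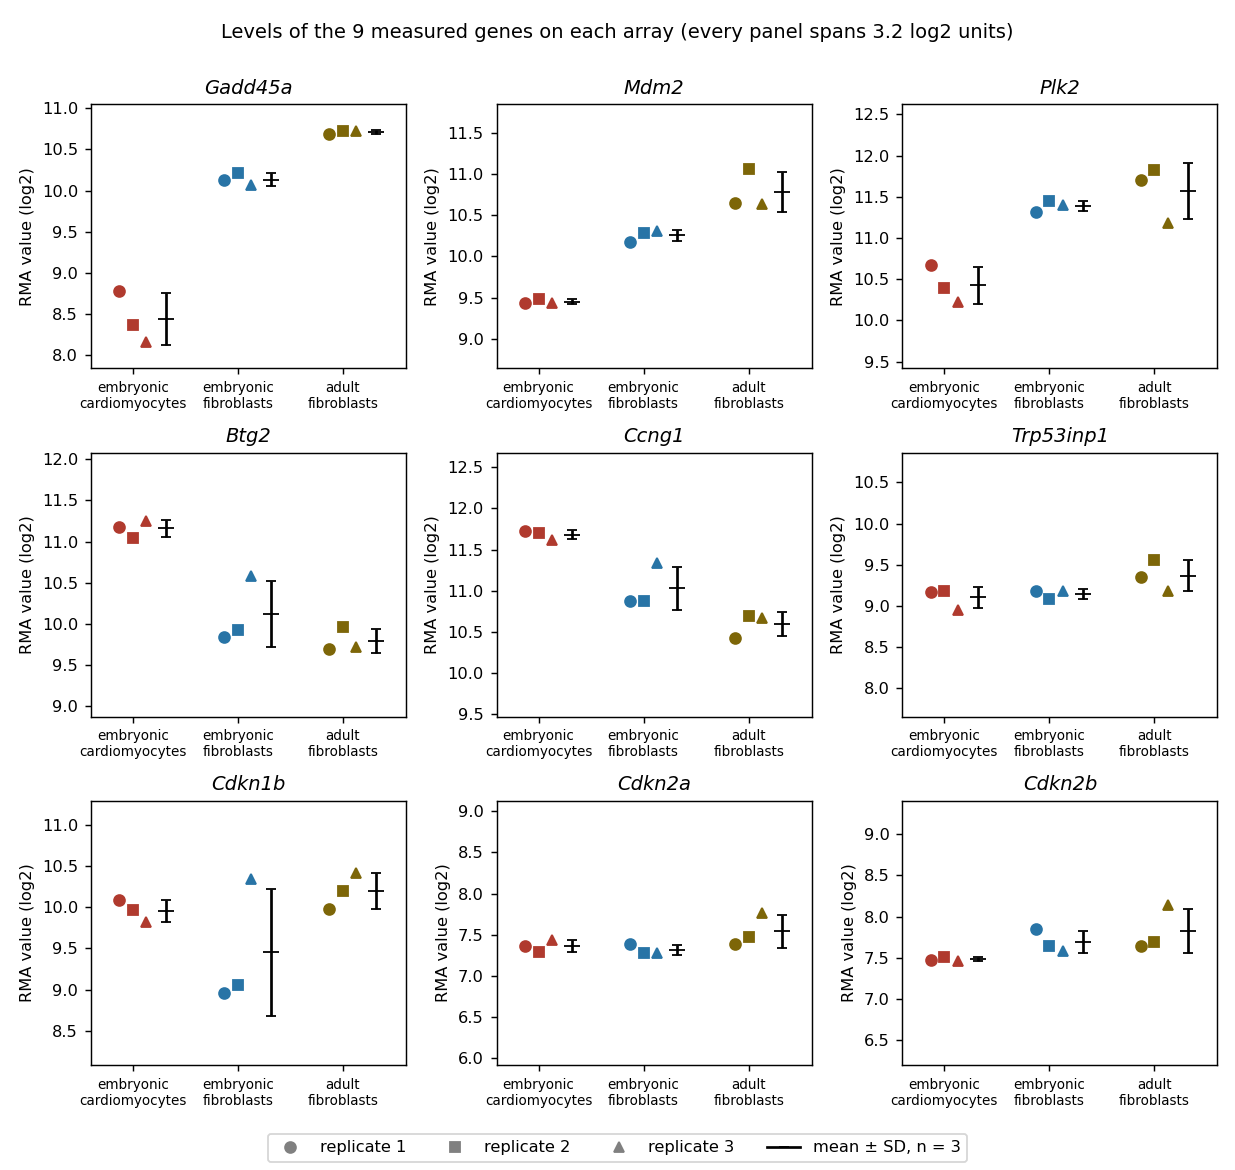
RMA values (log2, vertical axis) of the 9 measured genes on the 9 arrays, in 3 panels a row, each spanning the same number of log2 units. Points are arrays, marked by replicate, and black bars give the mean ± SD of 3 arrays; Gadd45a rises from 8.44 in cardiomyocytes to 10.72 in adult fibroblasts, while Btg2 goes from 11.16 to 9.79.

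Between embryonic fibroblasts and embryonic cardiomyocytes, 3 of the 9 genes were called higher and 2 lower, where 21.4% of all genes were called, 10.3% higher and 11.1% lower. For 6 of the 9 genes the arrays of the groups did not overlap, against 39.1% of all genes. Between embryonic and adult fibroblasts 1 gene was higher in the embryonic cells and 2 were lower, where 19.5% of all genes were called, 11.2% higher and 8.34% lower. Groups did not overlap for 3 of the 9 genes there, against 33.0% of all genes. Between adult fibroblasts and cardiomyocytes 3 genes were higher and 2 lower, where 35.6% of all genes were called, 17.4% higher and 18.2% lower, and 6 of 9 did not overlap, against 45.9%. The median difference of the 9 genes was 0.04, -0.22 and 0.26 in these comparisons, beside -0.0003, -0.04 and 0.06 for all genes.

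**Figure D2:**
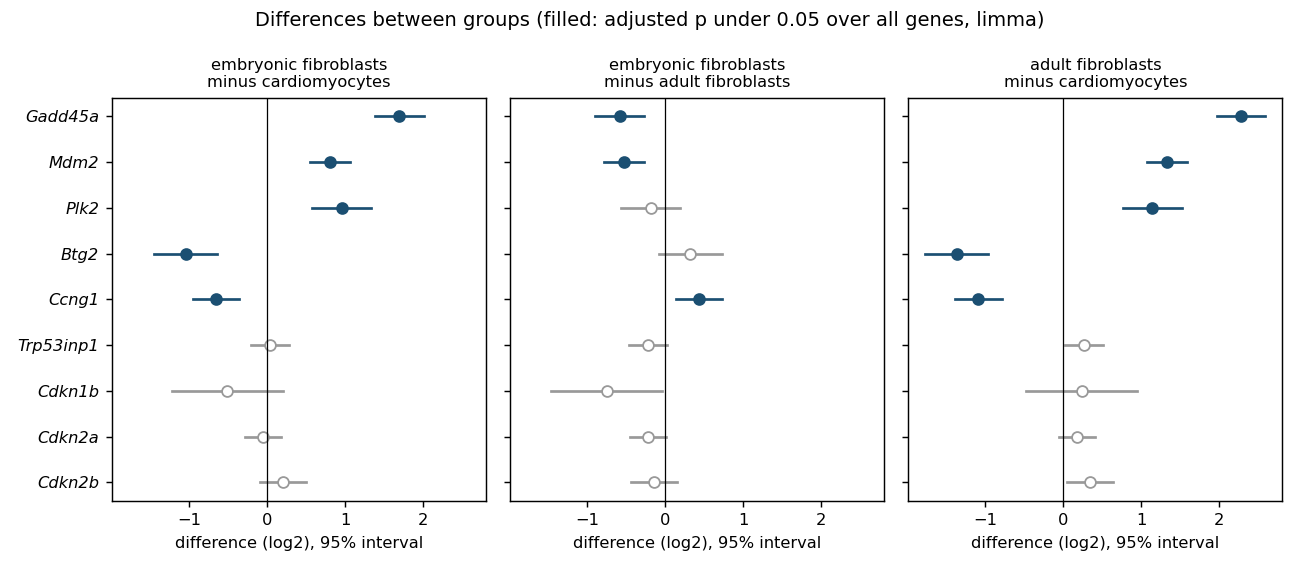
Differences between group means (log2, horizontal axis) with 95% intervals from limma for the 9 genes in each comparison. Filled points passed an adjusted p of 0.05 over all genes; Gadd45a has the largest difference in the outer panels (1.70 and 2.28), and Cdkn1b the widest intervals.

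The preparations also differed in other respects that move with these genes. The mean level of 12 cardiomyocyte markers ran from 12.52 to 12.63 in the cardiomyocyte arrays, from 10.95 to 11.69 in the embryonic fibroblast arrays and from 7.82 to 8.22 in the adult ones. All 12 were called higher in embryonic than adult fibroblasts, and 9 were lower in embryonic fibroblasts than cardiomyocytes. Tnnt2, the cardiac troponin T gene, stood at 13.26 to 13.44 in embryonic fibroblasts, beside 13.77 to 13.88 in cardiomyocytes and 9.40 to 10.62 in adult fibroblasts. Other markers of the list were further apart between the embryonic groups. Actn2 stood at 9.97 to 10.83 in embryonic fibroblasts, beside 12.17 to 12.37 in cardiomyocytes. The 12 fibroblast markers averaged 8.35 to 8.60 in cardiomyocytes, 9.66 to 9.91 in embryonic and 10.77 to 10.98 in adult fibroblasts. Of these 12, 8 were called lower and 1, Col3a1 (9.65 against 9.12), higher in embryonic than adult fibroblasts. Col1a1, Col1a2 and Postn also had their highest group mean in embryonic fibroblasts. The 12 endothelial markers averaged 8.32 to 8.70 in cardiomyocytes, 9.33 to 9.79 in embryonic and 8.71 to 9.77 in adult fibroblasts. The 12 macrophage markers, lowest in cardiomyocytes, averaged 8.18 to 8.60 in embryonic and 8.85 to 9.68 in adult fibroblasts. The 7 measured red cell markers averaged 8.53 to 8.68 in cardiomyocytes, 7.98 to 8.02 in embryonic and at most 7.13 in adult fibroblasts. Of these, Hbb-y, Hba-x and Hbb-bh1 fell in that order, as Btg2 and Ccng1 did. For Alas2, Epb42, Slc4a1 and Klf1 the group means spanned at most 0.042. The mean of the 10 epicardial and mesothelial markers was highest in embryonic fibroblasts, as was the inhibitor gene Cdkn1c described below. That mean ran from 8.14 to 8.34 there, against 7.63 to 7.66 in cardiomyocytes and 7.46 to 7.55 in adult fibroblasts. Of the 10, 4 were called higher in embryonic fibroblasts than cardiomyocytes and 6 higher than in adult fibroblasts. Aldh1a2 was highest in adult fibroblasts (9.37) and Krt19 in cardiomyocytes (8.34). The 11 measured mitotic genes averaged 10.32 to 10.48 in cardiomyocytes, 9.29 to 9.79 in embryonic and 7.17 to 7.38 in adult fibroblasts. The part of these cell types and of cell division in the results below was not tested, and in such bulk samples fewer cells of a type and less RNA per cell cannot be told apart. The Y-linked genes Eif2s3y, Kdm5d and Uty were lower on every adult array than on every embryonic one (for Eif2s3y 4.67 to 5.10 against 8.43 to 9.33), so age and sex cannot be told apart. The third adult array was the least like its group (mean correlation 0.970, against 0.981 for the others). Embryonic fibroblast replicate 3 lay nearer to the cardiomyocyte arrays (mean correlation 0.974) than replicates 1 and 2 did (0.966 and 0.963).

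Gadd45a encodes a small stress-induced protein that takes part in growth arrest and DNA repair. Its values were 8.78, 8.37 and 8.16 in cardiomyocytes. Embryonic fibroblasts gave 10.13, 10.21 and 10.06, and adult fibroblasts 10.69, 10.73 and 10.73. The 3 groups were separate, and the adult arrays varied least (SD 0.02). Gadd45a was 3.24-fold higher in embryonic fibroblasts than in cardiomyocytes (difference 1.70 ± 0.14, SE, n = 3 per group, adjusted p = 8.46e-05 by limma), and 0.88% of all genes differed by more. Against adult fibroblasts it was lower in the embryonic cells (-0.58 ± 0.14, adjusted p = 0.0159). That call was lost without embryonic fibroblast replicate 1 (-0.58, adjusted p = 0.0530) or replicate 3 (-0.55, adjusted p = 0.0566), while the adjusted p ran from 0.00211 to 0.0566 over all settings. In adult fibroblasts it stood 4.85-fold above cardiomyocytes (2.28 ± 0.14, adjusted p = 2.05e-06).

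Mdm2 encodes the ubiquitin ligase that is both a target and an inhibitor of p53. Cardiomyocyte arrays gave 9.44, 9.49 and 9.43, embryonic fibroblast arrays 10.18, 10.29 and 10.31, and adult fibroblast arrays 10.65, 11.06 and 10.63. The groups did not overlap in any of the comparisons, and the cardiomyocytes varied least (SD 0.03). The embryonic fibroblasts exceeded the cardiomyocytes by 0.81 ± 0.11 (1.75-fold, adjusted p = 0.00115) and fell short of the adult fibroblasts by a difference of -0.52 ± 0.11 (1.44-fold lower, adjusted p = 0.0104). The adult fibroblasts were 2.51-fold above the cardiomyocytes (1.33 ± 0.11, adjusted p = 1.52e-05). Mdm2 kept each of these calls under all 15 alternative settings.

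Plk2 encodes a polo-like kinase induced by serum and by p53. Its values were 10.67, 10.39 and 10.22 in cardiomyocytes, 11.32, 11.45 and 11.40 in embryonic fibroblasts and 11.70, 11.82 and 11.19 in adult fibroblasts. Both fibroblast groups lay above all cardiomyocyte arrays, but they overlapped each other because adult replicate 3 fell below the embryonic arrays. Plk2 was 1.95-fold higher in embryonic fibroblasts (0.96 ± 0.17, adjusted p = 0.00322) and 2.21-fold higher in adult fibroblasts (1.14 ± 0.17, adjusted p = 0.000503) than in cardiomyocytes. The fibroblast groups differed by -0.18 ± 0.17 (95% interval -0.56 to 0.20, adjusted p = 0.506), and without adult replicate 3 by -0.37 (adjusted p = 0.0635).

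Btg2, an antiproliferative gene that acts on transcription and messenger RNA decay, had values of 11.17, 11.05 and 11.25 in cardiomyocytes. In embryonic fibroblasts they were 9.85, 9.93 and 10.58, and in adult fibroblasts 9.70, 9.96 and 9.72. Cardiomyocytes were above every fibroblast array, and embryonic replicate 3 lay between the other embryonic arrays and the cardiomyocytes. Btg2 was 2.06-fold lower in embryonic fibroblasts than in cardiomyocytes (-1.04 ± 0.18, adjusted p = 0.00291) and 2.58-fold lower in adult fibroblasts (-1.37 ± 0.18, adjusted p = 0.000231). The difference between the fibroblast groups, 0.32 ± 0.18, did not pass the test (95% interval -0.08 to 0.73, adjusted p = 0.258) and shrank to 0.09 without embryonic replicate 3.

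Ccng1 encodes cyclin G1, a p53 target that recruits a phosphatase to Mdm2. The arrays gave 11.73, 11.70 and 11.62 in cardiomyocytes, 10.88, 10.88 and 11.33 in embryonic fibroblasts, and 10.42, 10.70 and 10.67 in adult fibroblasts. The 3 groups were separate, with embryonic replicate 3 again nearest to the cardiomyocytes. Ccng1 was 1.57-fold lower in embryonic fibroblasts (-0.65 ± 0.13, adjusted p = 0.00704) and 2.12-fold lower in adult fibroblasts (-1.08 ± 0.13, adjusted p = 0.000151) than in cardiomyocytes. Its higher level in embryonic than adult fibroblasts (0.43 ± 0.13) passed narrowly (adjusted p = 0.0484), and 13 of 15 alternative settings ended that call, over a range of adjusted p from 0.0397 to 0.149. Without embryonic replicate 3 the difference was 0.28 (adjusted p = 0.111).

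Embryonic fibroblast replicate 3 exceeded the mean of replicates 1 and 2 by 0.69 in Btg2, 0.46 in Ccng1 and 1.33 in Cdkn1b, and by no more than 0.07 in the other 6 genes. In this array the cardiomyocyte markers averaged 11.69 against 11.37 and 10.95 in replicates 1 and 2, and the mitotic genes 9.79 against 9.29 and 9.38. Gadd45a, Mdm2 and Plk2 kept their higher level in embryonic fibroblasts than cardiomyocytes without it (1.73, 0.78 and 0.95), and Btg2 was then lower by a difference of -1.27.

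Trp53inp1, a p53-induced gene linked to cell death and autophagy, varied little. Its values were 9.17, 9.18 and 8.96 in cardiomyocytes, 9.18, 9.08 and 9.18 in embryonic fibroblasts, and 9.36, 9.56 and 9.18 in adult fibroblasts. All groups overlapped, and 4 of the 9 arrays held the same value to 3 decimals. Its largest difference, adult fibroblasts against cardiomyocytes, was 0.26 ± 0.11 (95% interval 0.02 to 0.51, adjusted p = 0.0915). That difference passed after quantile normalization (0.34, adjusted p = 0.00643) and without adult replicate 3 (0.36, adjusted p = 0.0202), over a range from 0.00643 to 0.259. After quantile normalization Trp53inp1 was also called lower in the embryonic of the fibroblast groups (-0.28, adjusted p = 0.0304, range 0.0304 to 0.465, against -0.22 ± 0.11 and adjusted p = 0.212 without it). Between the embryonic groups the difference was 0.04 ± 0.11, and its sign turned without cardiomyocyte replicate 3 (-0.03).

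Among the inhibitors, Cdkn1b encodes p27, which binds cyclin E and cyclin A complexes of CDK2. Its values were 10.09, 9.97 and 9.82 in cardiomyocytes, 8.96, 9.06 and 10.34 in embryonic fibroblasts, and 9.98, 10.20 and 10.42 in adult fibroblasts. Embryonic replicates 1 and 2 lay below all other arrays, and replicate 3 lay above all but 1 of them. With all arrays the embryonic fibroblasts differed from cardiomyocytes by -0.51 ± 0.32 (adjusted p = 0.334) and from adult fibroblasts by -0.75 ± 0.32 (adjusted p = 0.145), and neither passed. Without embryonic replicate 3 both were called lower, at -0.95 (adjusted p = 0.00212, range 0.00212 to 0.721) and -1.19 (adjusted p = 0.000799, range 0.000799 to 0.377). Adult fibroblasts and cardiomyocytes differed by 0.24 ± 0.32 (95% interval -0.47 to 0.95, adjusted p = 0.599).

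Cdkn1b has a second probe set, and the 2 disagreed. On the lower-valued set, cardiomyocytes gave 9.07, 8.99 and 8.78, embryonic fibroblasts 8.77, 8.61 and 8.69, and adult fibroblasts 8.72, 8.76 and 8.23. Embryonic replicate 3 lay between replicates 1 and 2 there, and all embryonic fibroblast values were below all cardiomyocyte ones. Its group means differed by -0.25 for embryonic fibroblasts minus cardiomyocytes, 0.12 for embryonic minus adult fibroblasts and -0.38 for adult fibroblasts minus cardiomyocytes, so the last 2 had the opposite sign of those on the set used. With the mean of both sets, adult fibroblasts and cardiomyocytes differed by -0.07 (adjusted p = 0.793, range 0.178 to 0.825).

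**Figure D3:**
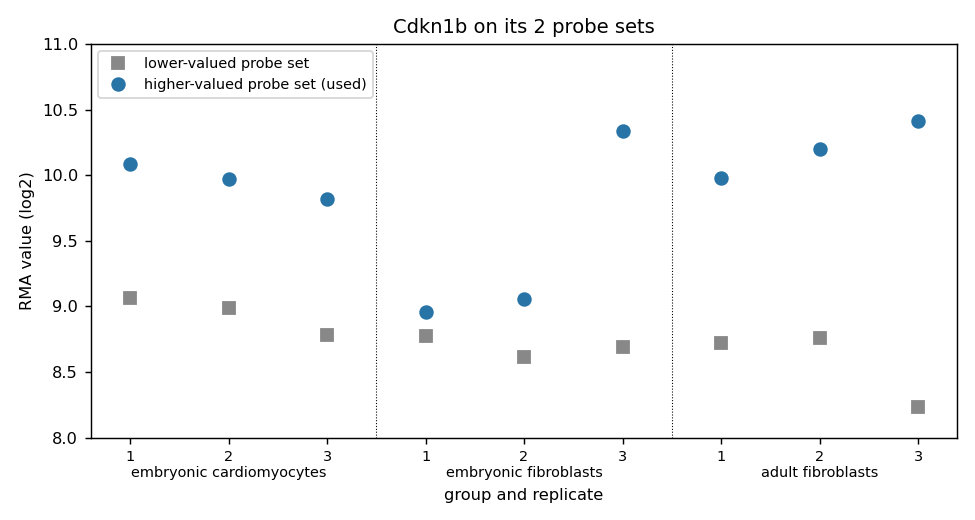
RMA values (log2, vertical axis) of Cdkn1b on its 2 probe sets for each of the 9 arrays (horizontal axis, grouped by preparation). On the set used (circles) embryonic fibroblast replicate 3 stands at 10.34 against 8.96 and 9.06, while on the other set (squares) the same arrays lie between 8.61 and 8.77.

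Cdkn2a, which encodes p16 and, from another reading frame, the p53 activator p19Arf, stayed within a narrow range. It had values of 7.37, 7.29 and 7.44 in cardiomyocytes, 7.39, 7.28 and 7.28 in embryonic fibroblasts, and 7.39, 7.47 and 7.76 in adult fibroblasts. The groups overlapped, and the probe set does not tell the products apart. The largest difference was -0.22 ± 0.10 for embryonic against adult fibroblasts (95% interval -0.45 to 0.01, adjusted p = 0.184). RMA values hold no measure of background, so whether this gene was expressed at all in the preparations cannot be read from them.

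Cdkn2b, which encodes p15 and lies beside Cdkn2a, gave 7.47, 7.51 and 7.47 in cardiomyocytes, 7.85, 7.65 and 7.58 in embryonic fibroblasts, and 7.65, 7.70 and 8.14 in adult fibroblasts. Every fibroblast array lay above every cardiomyocyte array, yet no difference passed. Adult fibroblasts exceeded cardiomyocytes by 0.34 ± 0.13 (95% interval 0.05 to 0.64, adjusted p = 0.0688), which passed without adult replicate 1 (0.43, adjusted p = 0.0423, range 0.0423 to 0.153). The embryonic fibroblasts differed from cardiomyocytes by 0.21 ± 0.13 (adjusted p = 0.334). They differed from adult fibroblasts by -0.14 ± 0.13 (adjusted p = 0.524), a difference that turned to 0.02 without adult replicate 3.

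Other genes of these pathways were counted from lists. Of the 4 other CDK inhibitor genes, 1 was higher and 3 lower in embryonic fibroblasts than in cardiomyocytes. In embryonic against adult fibroblasts 1 was higher and 0 lower. In adult fibroblasts 0 were higher and 3 lower than in cardiomyocytes. Of all genes, 21.4%, 19.5% and 35.6% were called in these comparisons. Cdkn1c, the imprinted gene of the Cip/Kip inhibitor p57, had values of 10.76, 10.76 and 10.67 in cardiomyocytes, 11.36, 11.38 and 11.41 in embryonic fibroblasts and 8.73, 8.97 and 8.89 in adult fibroblasts. It was the inhibitor gene of these lists with the largest difference, 5.73-fold higher in embryonic than adult fibroblasts (2.52 ± 0.08, adjusted p = 2.75e-07). Its order, with embryonic fibroblasts highest, was shared by none of the 9 genes. The Ink4 gene Cdkn2d (p19) was lower in embryonic fibroblasts than cardiomyocytes (-0.62 ± 0.10), as were the phosphatase gene Cdkn3 (-0.84 ± 0.17) and Cdkn2c (p18, -0.53 ± 0.15, adjusted p = 0.0341). The call of Cdkn2c was lost under 6 alternatives, among them the omission of cardiomyocyte replicate 1 or 2 or of embryonic fibroblast replicate 1 or 2 (adjusted p from 0.107 to 0.125).

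The counts of the following lists stand beside 21.4% of all genes called between the embryonic groups, 19.5% between the fibroblasts and 35.6% between adult fibroblasts and cardiomyocytes. Of the 8 G1 cyclins and their kinases, 0 were higher and 1 lower in embryonic fibroblasts than cardiomyocytes, 5 were higher and 0 lower than in adult fibroblasts, and 7 were lower and 0 higher in adult fibroblasts than cardiomyocytes. The single lower gene was Ccnd3 (-0.34 ± 0.08, adjusted p = 0.0171), whose call was lost without cardiomyocyte replicate 1 or 3 or embryonic fibroblast replicate 1 or 2 (adjusted p up to 0.0643). Cdk4 (1.84) and Cdk2 (1.15), the kinases bound by Ink4 and Cip/Kip proteins, had the largest differences between the fibroblasts. Of the 11 genes of the retinoblastoma and E2F families, 2 were higher and 0 lower, 4 higher and 0 lower, and 1 higher and 5 lower in the same comparisons. The 2 higher between the embryonic groups were E2f3 (0.38 ± 0.07) and E2f7 (0.32 ± 0.09), and E2f7 lost its call under 8 alternatives, among them the omission of any single array of those groups (adjusted p up to 0.138). E2f3 lost its call between the fibroblasts after quantile normalization (adjusted p = 0.0508). Arrays of the groups did not overlap for 7, 8 and 6 of the 11 genes in the 3 comparisons, against 39.1%, 33.0% and 45.9% of all genes. The repressor E2f8 was higher in embryonic than adult fibroblasts (2.71), as was Rbl1, which encodes p107 (1.31). All 11 mitotic genes were lower in adult fibroblasts than in cardiomyocytes (median difference -3.74), 10 were higher in embryonic than adult fibroblasts, and 9 were lower in embryonic fibroblasts than cardiomyocytes.

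Of 14 measured members of the p53 family and its regulators, 2 were higher and 2 lower when the embryonic groups were compared. Ppm1d, a phosphatase that switches off p53 signalling, was higher (0.62), and the DNA damage kinase genes Atr (-0.81) and Atm (-0.60) were lower. The other higher gene, Usp7 (0.39 ± 0.09), lost its call without embryonic fibroblast replicate 1 (adjusted p = 0.0513) or 2 (adjusted p = 0.0536). Against adult fibroblasts 4 were higher and 1 lower, with the checkpoint kinase gene Chek1 (1.00) and Ppm1d (0.61) showing the largest differences. Of these 5 calls, that of Trp53bp1 (0.55 ± 0.16) was lost under 8 alternatives and that of Kat5 under 5. In adult fibroblasts 2 were higher and 5 lower than in cardiomyocytes, including Usp7, a deubiquitinase of Mdm2 and p53 (0.68), and the checkpoint kinase gene Chek2 (-0.82). Mdm4, the partner of Mdm2, had values of 9.58, 9.76 and 9.61 in cardiomyocytes, 9.55, 9.47 and 9.55 in embryonic fibroblasts and 9.94, 9.77 and 9.61 in adult fibroblasts, and passed in no comparison. Its difference between the fibroblasts, -0.25 ± 0.10 (adjusted p = 0.110), passed without adult replicate 3 (-0.33, adjusted p = 0.0242) and after quantile normalization (-0.29, adjusted p = 0.0401).

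Of 26 further p53 targets measured, 3 were higher and 3 lower in embryonic fibroblasts than cardiomyocytes, 2 higher and 4 lower than in adult fibroblasts, and 8 higher and 8 lower in adult fibroblasts than in cardiomyocytes. The first 2 of these counts, 6 of 26 each, lay near the 21.4% and 19.5% of all genes called, which also divided between higher and lower. The call of Eda2r between the fibroblasts was lost under 10 alternatives. The death receptor gene Fas had the largest difference, with 7.29, 6.80 and 7.11 in cardiomyocytes, 9.01, 8.71 and 8.42 in embryonic and 9.80, 9.94 and 9.78 in adult fibroblasts. Its 3 groups were separate, in the order seen for Gadd45a and Mdm2 (1.65 ± 0.16 between the embryonic groups and 2.77 ± 0.16 for adult fibroblasts against cardiomyocytes). Perp, a desmosomal target, had the reverse order, at -0.96 ± 0.21 between the embryonic groups and 1.04 ± 0.21 for embryonic against adult fibroblasts. Of the Ink4 locus repressors, 2 of 11 were higher and 1 lower between the embryonic groups, 2 higher and 1 lower between the fibroblasts, and 1 higher and 3 lower in adult fibroblasts than in cardiomyocytes. The first 2 counts, 3 of 11 each, lay near the background of all genes. So did the last count, beside 35.6% of all genes called. Between the embryonic groups the lower gene, Cbx8 (-0.31 ± 0.09), lost its call under 6 alternatives, among them the omission of cardiomyocyte replicate 1 or 2 or any embryonic fibroblast array (adjusted p up to 0.110), and Eed (0.69 ± 0.14) lost its call with the mean of all probe sets (adjusted p = 0.102). Between the fibroblasts Cbx8 and Tbx3 each lost their call under 4 alternatives, for both among them the omission of embryonic fibroblast replicate 1 or 3, and of adult replicate 1 for Cbx8 and 2 for Tbx3. The Polycomb gene Ezh2 led the last count at -1.18 ± 0.16.

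The 10 measured relatives of the genes in the Gadd45, Plk, Btg/Tob, cyclin G and Trp53inp families were counted as well. Between the embryonic groups 3 were higher and 3 lower, between the fibroblasts 2 higher and 1 lower, and between adult fibroblasts and cardiomyocytes 3 higher and 3 lower. Gadd45g (-0.80 ± 0.24), one of the lower genes between the embryonic groups, lost its call under 7 alternatives, among them the omission of any array of those groups (adjusted p up to 0.151). Plk3 (0.73) was higher in embryonic fibroblasts than in cardiomyocytes, as its relative Plk2 was, and the mitotic kinase gene Plk1 was lower (-1.05). Tob2 (1.10) was higher and Plk4, which controls centriole duplication (-2.35), lower in adult fibroblasts than in cardiomyocytes.

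**Figure D4:**
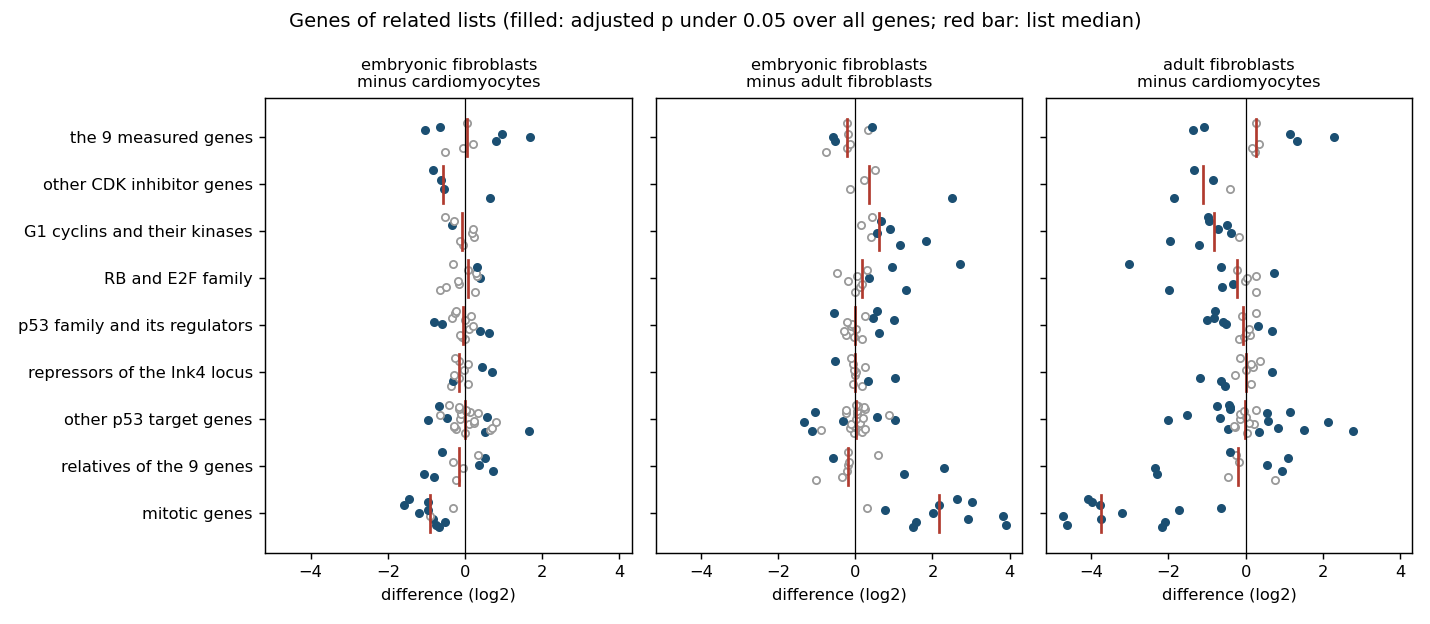
Differences between group means (log2, horizontal axis) for the 9 genes and the genes of 8 related lists (rows) in the 3 comparisons. Each point is a gene, filled where the adjusted p was under 0.05 over all genes, and red bars are list medians; mitotic genes shift most, with a median of -3.74 in the right panel.

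Likeness of pattern was sought for the 5 genes whose group means spanned at least 1 log2 unit, among the 2935 genes with such a span (14.7% of all). The measure was Pearson's correlation over the 9 arrays, which here rests mostly on the 3 group levels and is given as a description. Gadd45a was most like Pdgfra (0.996), the platelet-derived growth factor receptor gene and one of the 12 fibroblast markers above, which stood at 8.42, 9.93 and 10.48 in the 3 groups, then Hook3 and Rap1b (both 0.995). Mdm2 was most like Zc3h7a (0.993), Utp15 (0.991) and Neurl3 (0.990), and Plk2 most like Gla (0.990), Rbpj (0.988) and Cobll1 (0.987). Btg2 was followed most closely by Taf9b (0.993), Pigu (0.985) and Akip1 (0.984), and Ccng1 by Osgepl1 (0.996), Pstk (0.994) and Gca (0.993).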

How the data were processed

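Expression was deposited as log2 values that the authors made with RMA, per the submitters' processing notes; neither version, build nor log base is given in the sources used here, and log2 was read from the range (2.70 to 14.20). The platform annotation gives 1 symbol for 21776 of 28767 probe sets, several for 1618 and no symbol for 5373, and only the first were used. The test was limma 3.58.1 under R 4.3.3 (lmFit and eBayes), with a mean per group, all 9 arrays, no filter and Benjamini-Hochberg adjustment over 19933 genes; tests were two-sided. The method was tested on simulated data. Folds are between RMA values, which compress dim genes. Named genes are the measured ones of the list, up to 4 called genes with the largest difference per related list and comparison, and Mdm4, Cdkn1c and Cdkn2c. Genes and lists were chosen with earlier results of these data known. List entries without a probe set of their own are not reported here. The labels do not say whether same-numbered arrays were paired, and the main fit treated all arrays as unpaired. Same-numbered deviations from the group means correlated from -0.16 to 0.19. Differently numbered arrays were not compared in this way, so the values cannot decide whether arrays were paired. Figures were drawn with matplotlib 3.10.9.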

Additional observations from a re-analysis of the deposited data

How the results depend on the processing

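Each of the 27 differences of the 9 genes was recomputed under 15 alternatives: the replicate number as a block, centring on the median, quantile normalization, dim genes left out (5265 genes), the mean of all probe sets, only the compared groups, and each array left out. Of 405 values, 381 kept their direction and side of the threshold, 15 lost and 6 gained a call, and 3 turned sign without having been called: Trp53inp1 between the embryonic groups without cardiomyocyte replicate 3 (-0.0283 to 0.0842 with an array left out), Cdkn2b between the fibroblasts without adult replicate 3 (-0.224 to 0.02) and Cdkn1b between adult fibroblasts and cardiomyocytes with the mean of both probe sets (-0.0675). Of the 15 lost calls, 13 were that of Ccng1 between the fibroblasts. The number of genes higher in embryonic than adult fibroblasts was therefore 1 as reported and 0 with the replicate block, after centring, after quantile normalization, with only the 2 groups compared, and without any single array (0 to 0). The number lower was 2, 1 to 2 with an array left out and 3 after quantile normalization, where Trp53inp1 was called too. With the replicate block, 2059 of all genes were higher and 2147 lower between the embryonic groups, against 2054 and 2212. Without embryonic fibroblast replicate 2 the lower count was 1452. RMA values carry no signal over background, which limits what Cdkn2a and Cdkn2b, the lowest of the 9 genes, can show. Their mean levels stood at percentiles 39.8 and 47.7 of all genes, and both were kept when dim genes were left out.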

Other observations

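Within the adult fibroblasts, replicate 2 had the highest value for 6 of the 6 p53 targets measured among the listed genes, with Gadd45a tied to 3 decimals with replicate 3. The further p53 targets as a whole did not share this. Of 26 measured, 9 were highest in replicate 1, 9 in replicate 2 and 8 in replicate 3. Of all genes, 24.7% were highest in replicate 2. Among the 8 further targets called higher in adult fibroblasts than cardiomyocytes, 6 were highest in replicate 2, against 38.4% of all genes so called. The counts were made after the values were seen and are a description. Replicate 2 also had the highest adult mean of the macrophage markers (9.68, against 8.85 and 9.12) and of the endothelial markers (9.77, against 9.18 and 8.71), and their part in the values was not tested.

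The spread among the adult arrays was wide for the further p53 targets Eda2r (9.18, 9.77 and 7.77 in replicates 1 to 3) and Tnfrsf10b (9.47, 10.13 and 8.42). Both were chosen after their values were seen.

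A value equal to 3 decimals on 4 or more arrays, as in Trp53inp1, was found for 2032 genes (10.2% of all).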
